A study of Mus musculus with 5 samples.

Results

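Class 3 semaphorins and the receptors through which they act were followed in cultures labelled as mouse aortic endothelium, the inner lining of the artery. The set held 9 genes, of 18194 genes on the array with a probe set of their own: the ligands Sema3a, Sema3b, Sema3c, Sema3d, Sema3e and Sema3f, the co-receptors Nrp1 and Nrp2, and the signalling receptor Plxnd1. It was taken as every probe set whose single annotated symbol was one of these names, 26 probe sets in all, 17 for the ligands and 9 for the receptors. The family was chosen by a measured value, the lower Sema3d intensity in the TNF-LTBR cultures, so the differences between the groups below are a description and carry no test.

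Class 3 semaphorins are the secreted members of the semaphorin family, first known as guidance cues for growing axons. Most of them bind a neuropilin on the cell surface, and the neuropilin passes the signal through a plexin, whose cytoplasmic part acts on small GTPases and weakens adhesion to the matrix. Sema3E is the known exception, since it can bind plexin D1 without a neuropilin. In blood vessels these ligands limit sprouting and shape vessel patterns, and neuropilins also serve as co-receptors for vascular endothelial growth factors.

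Expression came from 5 one-colour arrays of total RNA, 3 titled control and 2 titled TNF-LTBR, all at 24 h. All cultures came from the C57BL/6J background, were grown in heparin and endothelial growth supplement, and were fed a day before stimulation. The TNF-LTBR title joins tumour necrosis factor with the lymphotoxin beta receptor. Which agonists were used, and at what dose, is not given in these sources. All 5 arrays carry one treatment text, which names only the PBS vehicle, so the groups rest on the titles. The labels do not tie the arrays to separate cultures or animals, so they do not say whether the spread between arrays is technical or biological. The number of arrays limits the precision.

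The endothelial label was only partly borne out by marker genes. Of 12 endothelial markers, 6 lay under the brightness limit used for testing, a mean of 7.17 on the log2(intensity + 16) scale: Tie1, Tek, Pecam1, Robo4, Cdh5 and Vwf. Vwf, which encodes von Willebrand factor, was at intensities of 2.3 to 7.2. All 8 fibroblast and pericyte markers were above the limit, as were 5 of 8 smooth muscle markers, 2 of 4 lymphatic markers and 4 of the 7 macrophage markers with a probe set. The summed intensity of the endothelial markers was 3164 to 4276 in control and 3409 to 3769 in TNF-LTBR. Eng was the largest part, at 1550.2, 1858.3 and 1811.2 on the controls, against 1562.5 and 1693.5 in TNF-LTBR. The sum therefore says little of the dimmer markers. Emcn read 220.9, 660.8 and 81.4 on the controls, against 477.3 and 78.4, and Cdh5 read 235.6, 123.2 and 55.3, against 135.1 and 28.7. Kdr varied less, from 255.1 to 364.2. In such bulk samples, fewer cells of a type and less RNA per cell cannot be told apart.

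The arrays did not group by title. Over all 10916 genes tested, the root mean square difference was 0.35 on the log2 scale between TNF-LTBR array 1 and control array 2, and 0.35 between TNF-LTBR array 2 and control array 3. The TNF-LTBR arrays differed from each other by 0.72, and control arrays 2 and 3 by 0.75. Control array 1 was nearest to control array 2, at 0.53. Each member is therefore given array by array, in deposited intensity units, before any group mean. The limma fit across all genes called 0 genes at an adjusted p under 0.05, a share of 0%, and 192 genes, 1.76%, at an unadjusted p under 0.05. None of the 9 members was among either.

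**Figure D1:**
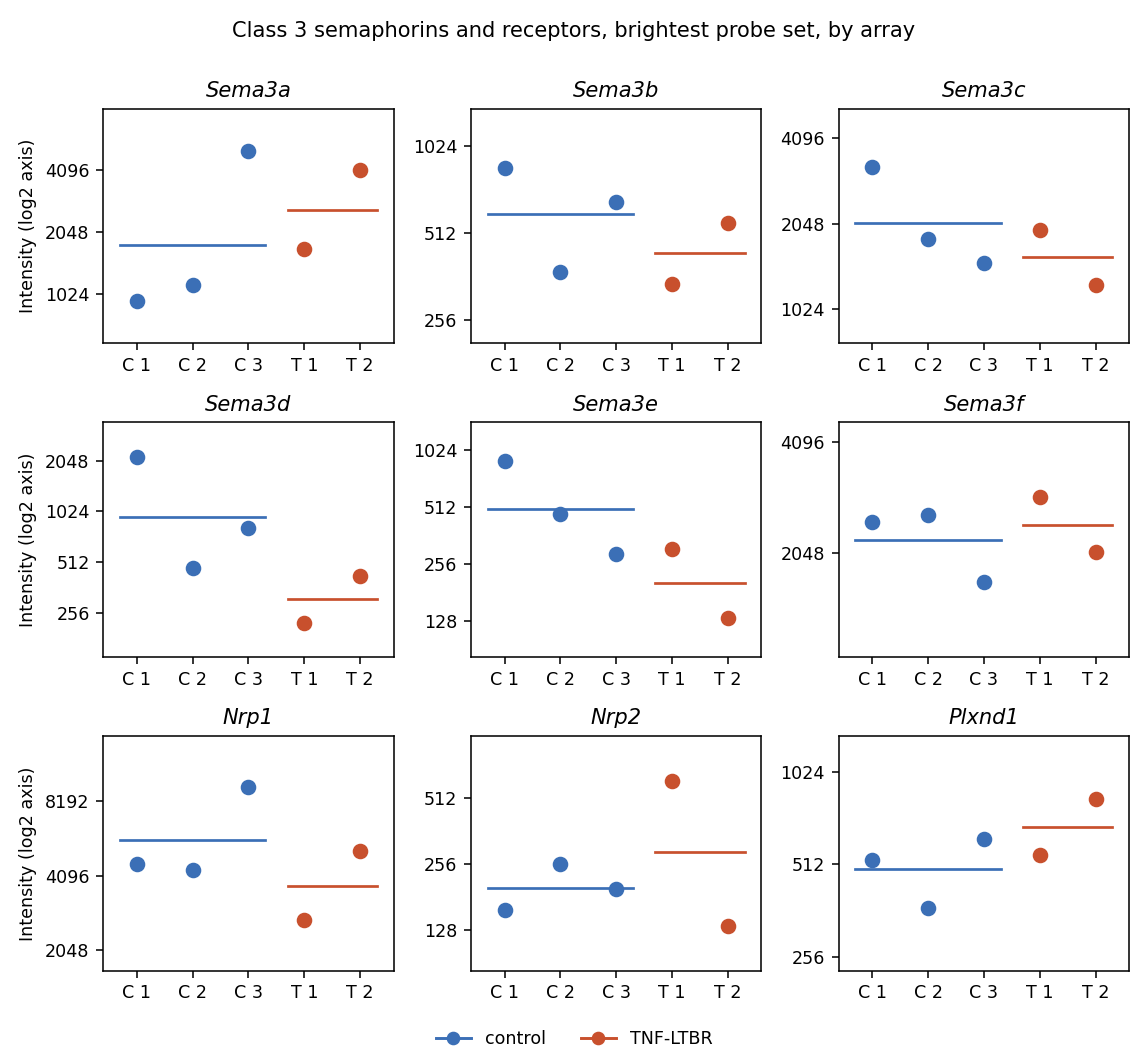
Deposited intensity of the brightest probe set of each member on each array, on a log2 axis. Points are the 3 control (C) and 2 TNF-LTBR (T) arrays, and lines are group means taken on the log2(intensity + 16) scale; the groups are fully separated for Sema3d and overlap for the other 8 genes.

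Among the brightest probe sets of the ligands, Sema3d had the most negative difference between TNF-LTBR and control, and Sema3e followed it. Sema3d encodes a secreted semaphorin that takes part in vessel patterning. Its brightest probe set, 1429459_at, gave intensities of 2155.8, 471.7 and 819.0 for control arrays 1 to 3, against 224.3 and 422.9 for TNF-LTBR arrays 1 and 2. Both TNF-LTBR arrays lay below every control, although TNF-LTBR array 2 was only a little under control array 2. The means on the log2(intensity + 16) scale were 9.91 ± 1.09 (SD, n = 3) in control and 8.34 ± 0.61 (SD, n = 2) in TNF-LTBR, a difference of -1.56 ± 0.67 (SE), or 2.96-fold lower.

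The size of that difference depended on control array 1, the highest array. Without it the difference was -0.97, and without control array 2 it was -2.05. The other Sema3d probe set read 605.3, 148.4 and 176.5 on the controls, against 47.7 and 164.5 in TNF-LTBR, a difference of -1.33 ± 0.72 (SE). On this probe set TNF-LTBR array 2 lay above control array 2, so the groups overlapped. Both probe sets had control array 1 highest and TNF-LTBR array 1 lowest.

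Sema3e encodes the ligand that binds plexin D1 directly. Its brightest probe set, 1419717_at, read 899.1, 471.7 and 289.3 on the controls, against 307.2 and 132.8 in TNF-LTBR. TNF-LTBR array 2 was the lowest of the 5 arrays, and TNF-LTBR array 1 lay just above control array 3, so the groups overlapped. The difference was -1.23 ± 0.57 (SE), or 2.35-fold lower, and ranged from -1.79 without TNF-LTBR array 1 to -0.67 without TNF-LTBR array 2. All 4 Sema3e probe sets were lower on average, by -0.41 to -2.26 on the log2 scale, and all 4 had control array 1 highest and TNF-LTBR array 2 lowest. The lowest differences came from 2 dim probe sets, one of which read 219.0, 97.5 and 47.6 on the controls, against 26.0 and 4.0 in TNF-LTBR, without overlap. The other read 296.1, 159.6 and 7.7, against 8.0 and 5.7, and overlapped, since control array 3 lay below TNF-LTBR array 1.

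Sema3b and Sema3c were also lower on average on each of their probe sets, by less than Sema3d. Sema3b, which encodes a semaphorin known as a tumour suppressor, read 860.0, 374.7 and 656.2 on the controls, against 341.0 and 553.8 in TNF-LTBR on probe set 1448415_a_at. The groups overlapped, with a difference of -0.44 ± 0.41 (SE), which was -0.10 without TNF-LTBR array 1 and -0.18 without control array 1. Its 2 dimmer probe sets did not overlap, with differences of -0.81 and -0.90. Their highest values were 262.1 and 159.9, so these rest on dim signals. On the former, control array 3 at 102.3 was barely above TNF-LTBR array 2 at 101.1.

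Sema3c encodes a ligand needed for the outflow tract of the developing heart. It read 3254.8, 1815.2 and 1485.7 on the controls, against 1951.5 and 1245.0 in TNF-LTBR on probe set 1429348_at. Control array 1 was again the highest, TNF-LTBR array 1 lay above the other controls, and the groups overlapped. The difference of -0.40 ± 0.39 (SE) was -0.07 without control array 1. The dimmer Sema3c probe set differed by -0.45 ± 0.33 (SE).

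Sema3a and Sema3f did not share the lower TNF-LTBR means. Sema3a, the founding member of the class and a ligand of Nrp1, read 947.7, 1135.0 and 5084.1 on the controls, against 1690.6 and 4075.0 in TNF-LTBR on probe set 1420416_at. Control array 3 and TNF-LTBR array 2 were far above the other 3 arrays. The groups overlapped, with a difference of 0.57 ± 0.83 (SE) that was 1.33 without control array 3 and -0.06 without TNF-LTBR array 2. Sema3f, a ligand of Nrp2, read 2483.1, 2589.8 and 1703.7 on the controls, against 2905.7 and 2054.3 in TNF-LTBR on probe set 1438947_x_at. Its difference was 0.14 ± 0.26 (SE), while the dimmer ones differed by -0.08 and -0.01, so the 3 probe sets gave no common direction. Over the fits that left out 1 array it ranged from -0.11 to 0.39.

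**Figure D2:**
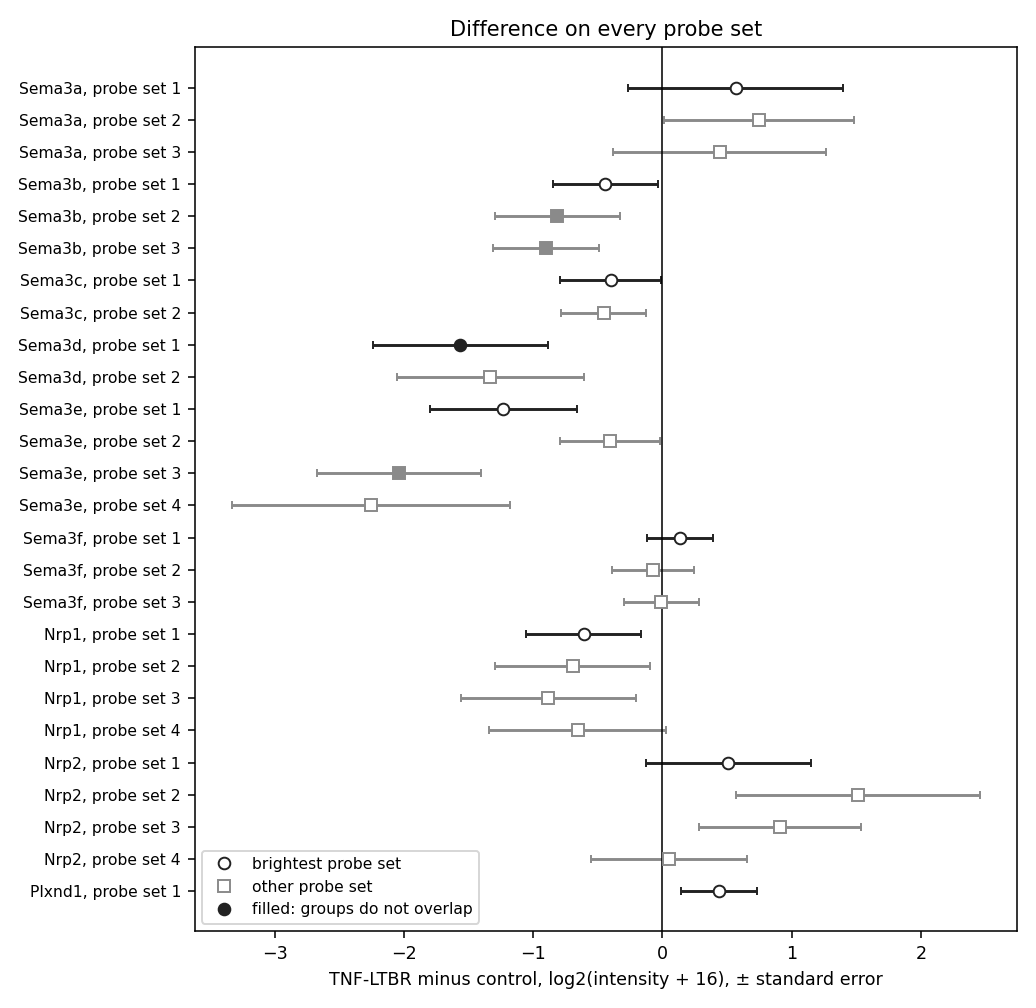
Difference between group means, TNF-LTBR minus control, on the log2(intensity + 16) scale with its standard error, for all 26 probe sets, ordered within each gene from brightest to dimmest. Of the 17 ligand probe sets, from 6 genes, 13 are below 0, but probe sets of 1 gene are not independent. By the brightest probe set 4 of the 6 ligands are below 0, against 50.7% of all genes tested. Sema3d, which chose the family, is among those ligands. Filled symbols mark the 4 whose groups do not overlap. With every probe set of the array fitted singly, 6.16% of those tested were lower without overlap.

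The mean differences of the 3 receptors did not share a direction. Nrp1 encodes the co-receptor of Sema3A and of vascular endothelial growth factor. Its brightest probe set, 1448943_at, read 4564.1, 4323.2 and 9368.0 on the controls, against 2704.9 and 5138.7 in TNF-LTBR. Control array 3 was the highest and TNF-LTBR array 1 the lowest, and TNF-LTBR array 2 lay above both other controls. The difference was -0.61 ± 0.45 (SE), or 1.53-fold lower, and it was -0.15 without TNF-LTBR array 1 and -0.25 without control array 3. All 4 Nrp1 probe sets put the 5 arrays in the same order, with differences of -0.61 to -0.88.

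Nrp2 encodes the co-receptor of Sema3F and of the lymphatic growth factor VEGF-C. Its brightest probe set, 1426528_at, read 156.6, 255.0 and 196.8 on the controls, against 614.8 and 132.7 in TNF-LTBR. The TNF-LTBR arrays were therefore the highest and the lowest of the 5, and their gap was 4.63-fold. The mean difference of 0.51 ± 0.64 (SE) was 1.55 without TNF-LTBR array 2 and -0.53 without TNF-LTBR array 1, so its direction was set by single arrays. The 2 next probe sets gave 1029.5 and 446.8 on TNF-LTBR array 1, against at most 313.5 and 290.4 in control, and both placed TNF-LTBR array 2 within the control range. The dimmest probe set, at most 48.0, had TNF-LTBR array 2 highest instead.

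Plxnd1 encodes plexin D1, the receptor of Sema3E that is prominent in developing vessels. Its single probe set, 1451475_at, read 531.0, 370.6 and 618.1 on the controls, against 550.3 and 833.5 in TNF-LTBR. TNF-LTBR array 2 was the highest of the 5, and TNF-LTBR array 1 lay within the control range. The difference was 0.44 ± 0.30 (SE), or 1.36-fold higher, and was 0.15 without TNF-LTBR array 2.

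Across the 9 members, the brightest probe set was lower on average in TNF-LTBR for 5 and higher for 4. The median difference was -0.40, against -0.0035 over all genes tested, on the log2 scale. All 9 passed the brightness filter. The groups did not overlap for 1 member, Sema3d, in the lower direction, against 6.34% of all genes tested, and for 0 members in the higher direction, against 6.94%. Because this contrast chose the family, nothing is read from these counts.

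The array-to-array profiles within a group use the same values as the contrast. For several members the spread within a group was wider than the difference between groups. Control array 1, on which the size of the Sema3d difference depended, also set the top of its control range. The counts and ranks below are therefore a description and carry no test. The range over the 3 controls was at least 2-fold for 6 of 9 members, against 14.1% of all genes tested, a limit chosen after the values were seen. The gap between the TNF-LTBR arrays was at least 2-fold for 3 members, Sema3a, Sema3e and Nrp2, against 10.1%. Both held for 2 members, Sema3a and Sema3e, against 7.85%. On the log2(intensity + 16) scale the control range of Sema3a was 2.40, larger than in all but 2.35% of genes, and that of Sema3d was 2.15, larger than in all but 2.99%. The TNF-LTBR gap of Nrp2, 2.08, was exceeded by 2.02% of genes. On the brightest probe sets, the smallest control ranges were those of Sema3f, Nrp2 and Plxnd1, at 0.60, 0.65 and 0.71. The other probe sets of Sema3f and Nrp2 had wider control ranges. The 2 next Nrp2 probe sets read 124.6, 313.5 and 54.2, and 131.0, 290.4 and 72.4, on the controls.

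**Figure D3:**
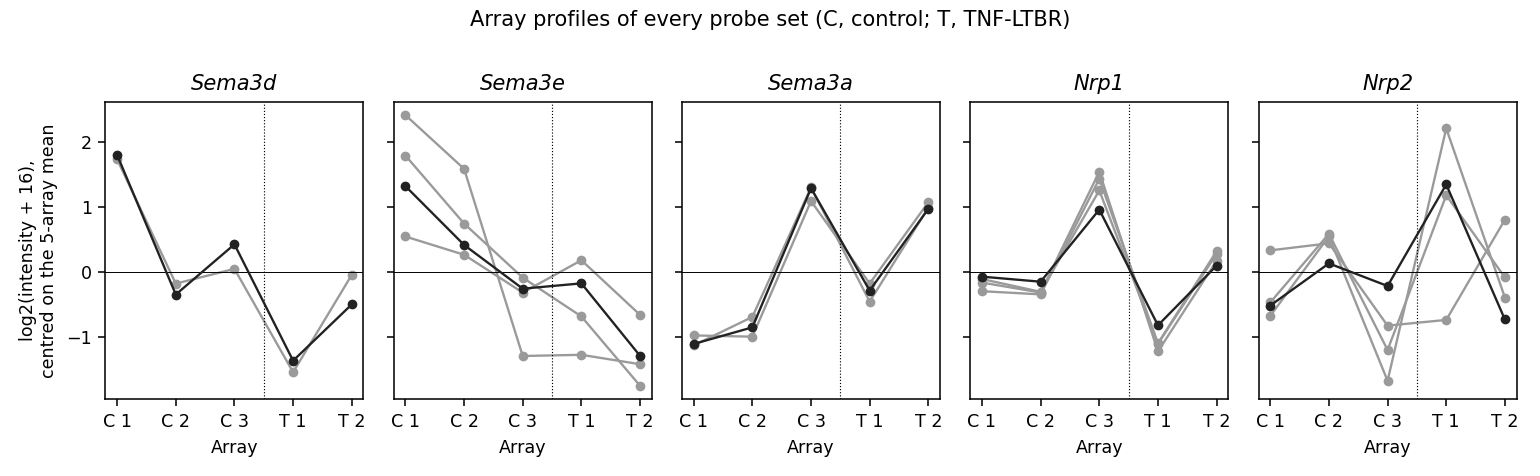
Profiles of every probe set of 5 members over the 3 control (C) and 2 TNF-LTBR (T) arrays, as log2(intensity + 16) centred on the mean of the 5 arrays, with the brightest probe set in black and the others in grey. The 4 Nrp1 probe sets run in one order, Sema3a peaks on control array 3 and TNF-LTBR array 2, and 3 of 4 Nrp2 probe sets peak on TNF-LTBR array 1.

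Sema3a and its receptor Nrp1 had the same arrays on top. Sema3a was 4.48-fold higher on control array 3 than on control array 2 and 2.41-fold higher on TNF-LTBR array 2 than on TNF-LTBR array 1. For Nrp1 these ratios were 2.17 and 1.90. All 3 Sema3a and all 4 Nrp1 probe sets had control array 3 highest and TNF-LTBR array 2 next. Among the members, 3 had control array 3 as the highest control together with a higher value on TNF-LTBR array 2 than 1, namely Sema3a, Nrp1 and Plxnd1. Over all genes tested 33.0% had this pattern, so that count is close to the background. Control array 1 was the highest control for 4 members, Sema3b, Sema3c, Sema3d and Sema3e, against 27.0%.

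Markers of other cell types also differed between these arrays, and the genes of 1 list did not go one way. Of the 8 fibroblast and pericyte markers, 4 had control array 3 as the highest control and TNF-LTBR array 2 above TNF-LTBR array 1, as Sema3a did: Lum, Dcn, Col1a1 and Pdgfrb. Another 2, Thy1 and Rgs5, had the reverse pattern. These patterns go by order alone. The control margin of Col1a1 was small, at 5448.8 on array 3 and 5273.0 on array 2. Lum, a proteoglycan gene, read 1145.4, 818.0 and 12967.3 on the controls, against 1103.8 and 12933.2 in TNF-LTBR, and Thy1, a surface glycoprotein gene, read 2583.1, 12215.1 and 154.6, against 8871.2 and 127.9. Of the 5 smooth muscle markers tested, 3 had the reverse pattern, Acta2, Tagln and Des, and Smtn and Lmod1 had neither. The Des margins were small, and both of its TNF-LTBR arrays lay above every control. The reverse pattern also held for 3 of 6 endothelial, 2 of 2 lymphatic and 3 of 4 macrophage markers tested, against 30.1% of all genes tested.

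The smooth muscle markers summed to 4211 to 14634 in control and 4036 to 6805 in TNF-LTBR. Control array 1 was highest, as for Sema3d, but control array 3 had the lowest control sum, which was not so for Sema3d. Acta2, the largest part of the sum, was highest on control array 2, at 8169.4 against 7581.6 on control array 1. The fibroblast and pericyte markers summed to 20377 to 50182 in control, lowest on control array 1, and to 50035 to 57243 in TNF-LTBR. The lymphatic markers summed to 435 to 8233 and 515 to 11494, nearly all of it from Pdpn, at 220.7 to 7962.8 on the controls, against 11151.8 and 328.4 in TNF-LTBR. The macrophage markers summed to 1511 to 5746 and 1384 to 6147. The part of these markers in the semaphorin and neuropilin values was not tested.

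**Figure D4:**
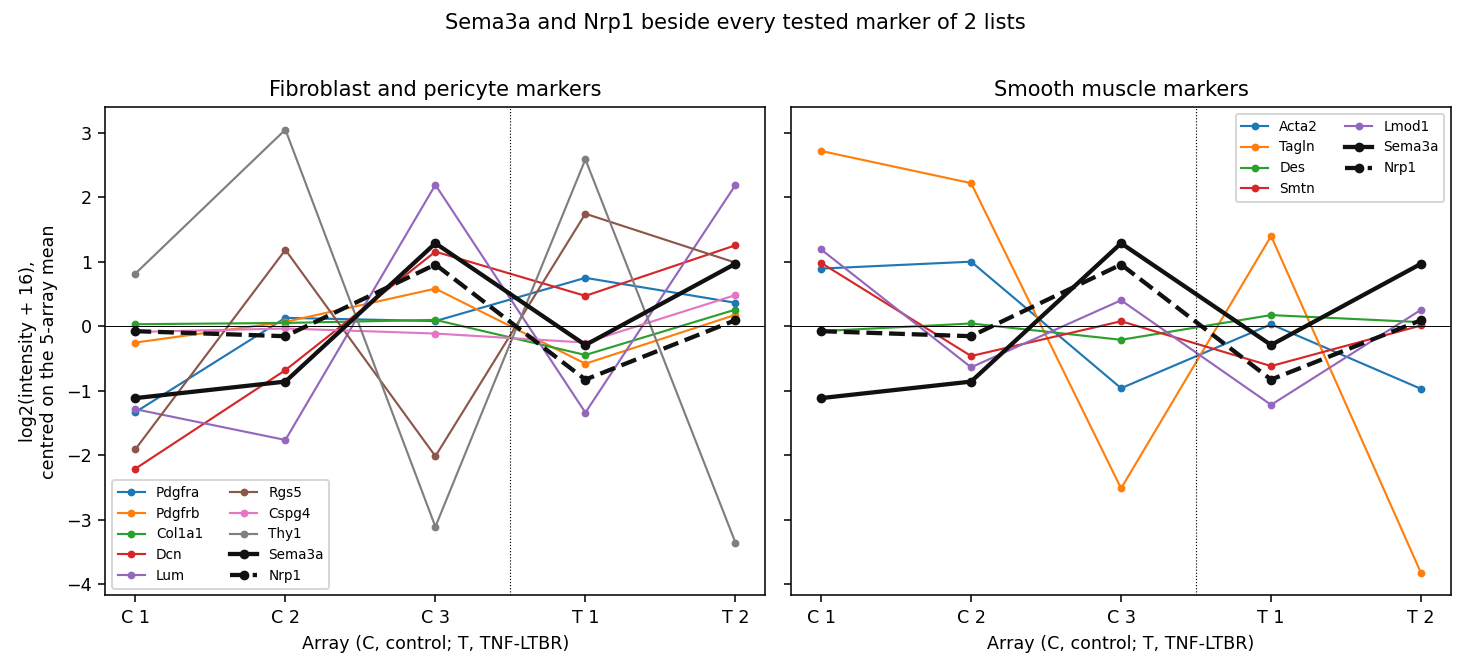
Sema3a and Nrp1 (black) beside all 8 fibroblast and pericyte markers (left) and all 5 tested smooth muscle markers (right) on the control (C) and TNF-LTBR (T) arrays, as log2(intensity + 16) centred on the mean of the 5 arrays. By order within each group, control array 3 and TNF-LTBR array 2 were high for 4 of the 8 fibroblast and pericyte markers, as for Sema3a. They were low for Thy1, Rgs5 and 3 of the 5 smooth muscle markers. Col1a1 and Des differed little among the controls.

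Setting each TNF-LTBR array against the control nearest to it over all genes, a pairing chosen after the data were seen, gave single-array ratios with no replicate. Sema3d was at 0.476 of control array 2 on TNF-LTBR array 1 and at 0.516 of control array 3 on TNF-LTBR array 2. Nrp1 was at 0.626 and 0.549, and Sema3e at 0.651 and 0.459. Sema3b was at 0.910 and 0.844. These 4 members were lower in both pairs, against 32.3% of all genes tested. Plxnd1, at 1.48 and 1.35, and Sema3f, at 1.12 and 1.21, were higher in both. The share of all genes higher in both pairs was not computed, so nothing is read from that count. Sema3a (1.49 and 0.802), Sema3c (1.08 and 0.838) and Nrp2 (2.41 and 0.674) differed in direction between the pairs.

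In RefSeq on the GRCm38.p6 assembly, 4 of the 6 ligand genes, Sema3a, Sema3c, Sema3d and Sema3e, lie on chromosome 5. Sema3d and Sema3a are direct neighbours there, with 0 protein-coding genes between them, yet their array profiles differed, as described above. Sema3b and Sema3f lie together on chromosome 9 with 3 protein-coding genes between them. RefSeq windows were found for 7 of the 9 members, all but Sema3b and Sema3f, and were searched on both strands over the 250 bases before the start. The motifs were the NF-kappaB consensus site, the AP-1 site TGANTCA, the GC box GGGCGG and TATAAA. None of the 7 windows held an NF-kappaB, AP-1 or TATAAA match, against 7.25%, 6.75% and 12.4% of all 32851 windows. GC boxes were in 5 of them, against 32.7% of all windows, and were absent from those of Sema3d and Sema3a.

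The windows of these neighbouring ligand genes and of both neuropilins, whose profiles went different ways, are printed 5′ to 3′ with GC box matches on either strand in capitals. They are chr5:12382916-12383165 for Sema3d, chr5:13396534-13396783 for Sema3a, chr8:128358823-128359072 for Nrp1 and chr1:62703067-62703316 for Nrp2, all on the plus strand of GRCm38.p6.
Sema3d: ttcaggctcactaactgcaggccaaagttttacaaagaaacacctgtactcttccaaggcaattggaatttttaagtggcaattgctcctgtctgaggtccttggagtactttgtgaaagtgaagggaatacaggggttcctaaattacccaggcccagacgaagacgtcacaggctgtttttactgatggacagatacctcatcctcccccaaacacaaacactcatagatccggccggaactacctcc
Sema3a: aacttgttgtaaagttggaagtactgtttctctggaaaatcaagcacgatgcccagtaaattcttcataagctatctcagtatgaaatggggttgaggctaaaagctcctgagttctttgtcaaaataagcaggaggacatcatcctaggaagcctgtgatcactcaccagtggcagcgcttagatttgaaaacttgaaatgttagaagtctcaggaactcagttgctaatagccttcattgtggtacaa
Nrp1: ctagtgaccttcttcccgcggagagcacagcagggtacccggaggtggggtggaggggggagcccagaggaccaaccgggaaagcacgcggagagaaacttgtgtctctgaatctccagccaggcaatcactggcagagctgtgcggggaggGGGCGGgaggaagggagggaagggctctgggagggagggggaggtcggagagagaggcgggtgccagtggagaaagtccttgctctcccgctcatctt
Nrp2: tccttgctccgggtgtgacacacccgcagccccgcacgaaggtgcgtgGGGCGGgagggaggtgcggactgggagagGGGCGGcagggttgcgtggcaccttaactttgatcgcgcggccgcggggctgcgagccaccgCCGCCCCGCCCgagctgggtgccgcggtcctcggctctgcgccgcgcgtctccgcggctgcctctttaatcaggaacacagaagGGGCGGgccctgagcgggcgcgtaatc
The G and C content was 46.8% for Sema3d, 40.8% for Sema3a, 64.4% for Nrp1 and 72.4% for Nrp2. The Nrp1 window held 1 GC box and the Nrp2 window 5, of which a pair overlaps by a base. A match is a description of these letters and not a binding site.

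The genes whose array profiles were nearest to that of Sema3d were Unc13c, Limch1, 1810010H24Rik, Smoc1 and Carns1. Their root mean square difference from Sema3d over the 5 arrays, after centring each gene, was 0.26 to 0.38 on the log2 scale, against a median of 1.09 over all genes tested. Smoc1, which encodes a secreted matrix protein, read 6743.6, 3072.4 and 2979.0 on the controls, against 1136.5 and 1603.1 in TNF-LTBR. Its TNF-LTBR arrays were both below every control, and control array 1 was the highest, as for Sema3d. Nearest to Nrp1 were Aldh6a1, Dennd5b and Ankrd24, each at 0.12, against a median of 0.60. Nearest to Nrp2 were Mex3b, Mmp13 and Gsdmd, at 0.14 to 0.24, against a median of 0.76. Mmp13, a collagenase gene, read 155.4, 341.7 and 178.4 on the controls, against 585.5 and 176.0 in TNF-LTBR. TNF-LTBR array 1 was highest and control array 2 next, as on the brightest Nrp2 probe set.

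The wider pathway was taken as 55 further genes, of which 53 had a probe set and 41 passed the brightness filter. They were the other plexins, other semaphorins, plexin and neuropilin signalling genes, proprotein convertases that cleave semaphorins, and the vascular endothelial growth factors that share the neuropilins. None of the 41 passed the limma test, adjusted or at an unadjusted p under 0.05. The groups did not overlap for 3 of them in the lower direction, against 6.34% of all genes tested, and for 1 in the higher direction, against 6.94%, so both counts are close to the background or under it. Their median difference was 0.01. None of the 6 other plexins, 3 convertases or 6 growth factor genes tested was free of overlap. The largest difference among the 41 was that of Vegfc, at 1.70 ± 0.72 (SE). It read 599.1, 2406.2 and 582.1 on the controls, against 4456.0 and 2179.7 in TNF-LTBR. Its groups overlapped, since control array 2 lay above TNF-LTBR array 2.

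Among the other semaphorins, Sema4c and Sema4b, which encode membrane-bound semaphorins, differed in opposite directions. Sema4c read 353.0, 600.3 and 495.9 on the controls, against 672.6 and 617.6 in TNF-LTBR, a difference of 0.44 ± 0.25 (SE). Sema4b read 831.4, 705.1 and 663.8 on the controls, against 554.3 and 660.8 in TNF-LTBR, a difference of -0.26 ± 0.17 (SE). In both, the groups were separated by a narrow margin. Sema3g, the remaining class 3 ligand, was under the brightness limit, at 89.6, 55.2 and 57.5 on the controls, against 53.2 and 29.8 in TNF-LTBR. Of the signalling genes, Farp2, which encodes an exchange factor that binds A-class plexins, differed by -0.44 ± 0.24 (SE). Arhgef12, which encodes the exchange factor LARG of B-class plexins, differed by -0.12 ± 0.11 (SE).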

How the data were processed

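The authors deposited linear array intensities, with 1 value for each probe set on each array. GCOS 1.4 is the tool named in the submitters' processing notes; the summarising algorithm, scaling target and build are not stated in these sources. The mean without the lowest and highest 2% of the 45101 probe sets was 500 on each array, with medians of 109.9 to 120.7, so values were used as deposited. Platform annotation gave 34958 probe sets a single symbol, and all 9 members matched RefSeq by Entrez ID. Intensities were transformed as log2(intensity + 16), which understates changes of dim genes. Each gene was represented by its brightest probe set over all arrays, and the brightest 60% were tested in R 4.3.3 with limma 3.58.1 (eBayes with trend, Benjamini-Hochberg, threshold 0.05, 3 residual degrees of freedom). Standard errors are limma's moderated ones. The fit was tested on simulated data with planted changes. Their spread was set smaller than that between these arrays, so recovery at the real spread was not tested. An exact two-sided permutation test of 3 against 2 arrays cannot go below 0.1. Members and lists were chosen with earlier results of these data known. The text names all members, pathway genes without overlap (up to 3 per list and direction), and the 5 genes most like Sema3d and 3 each for Nrp1 and Nrp2. Values of Smoc1, Mmp13, Lum, Thy1, Pdpn, Eng, Emcn, Cdh5, Kdr and Vegfc were picked out after they were seen. Pak1, Figf and Emr1 are not analysed here.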

Additional observations from a re-analysis of the deposited data

How the results depend on the processing

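Under 16 other settings, and 1 more chosen after seeing the data, limma called 0 genes. The number of members lower without overlap was 1 to 4 over the fits that left out 1 array, when 10.3% to 26.9% of all genes tested were also lower. The number higher was 0 to 2, against 10.2% to 26.7%. With the median over every probe set of a gene the lower count was 3 (Sema3b, Sema3d and Sema3e) and the higher count was 0. With every probe set taken singly, 6.16% of those tested were lower and 7.68% higher. These shares are not of medians, so they are no like background for the 2 counts. With control 3 and TNF-LTBR 2 both left out, 4 members were lower and 4 higher. Of all genes tested 34.7% and 34.6% were then also separated, because fewer arrays were compared. Of 134 member differences recomputed, 7 changed sign: 5 for Sema3f, 1 for Sema3a and 1 for Nrp2. These are not 134 separate checks. Dropping the brightness filter cannot change a member's difference. Using the replicate number as a block gave the same differences as leaving out control 3, so the same Sema3f sign change is counted under both. A fit that left 1 TNF-LTBR array assumed that it varied like the controls.

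Control and TNF-LTBR share replicate numbers 1 and 2, but nothing in the labels pairs them. Over genes, deviations from the group means correlated at 0.13 for number 1 and -0.80 for number 2. With only 2 TNF-LTBR arrays their deviations are mirror images, so control 2 necessarily correlated at 0.80 with TNF-LTBR 1. With the replicate number as a block, which takes control 3 out of the comparison, 0 genes were called, and the difference was -1.66 for Sema3d, -1.61 for Sema3e, -0.25 for Nrp1 and -0.05 for Sema3f. Without probe sets of shared-sequence suffixes Sema3b had no value. Dim probe sets, such as those of Sema3e and Nrp2, are limited by signal over background, which was not analysed here.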
